A study of Mus musculus with 28 samples.

Results

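The genes described here are the zinc finger protein genes of retinal microglia, taken as every gene whose symbol is Zfp followed by a number and whose level reached 1 RPKM (reads scaled to transcript length and library size) in at least 5 of the 28 retinas sequenced. Zfp36 was left out, since its protein binds RNA through another kind of finger. Of 370 such symbols listed, 276 met this minimum and 94 did not. The rule used the measured levels, but not the direction of any change. At its edge, the fifth highest RPKM of Zfp968 was 1.00, just inside, and that of Zfp964 was 0.989, just outside. Of the 276, 241 met the minimum with any 1 of the 4 groups left out, whereas 25 needed the naïve retinas, 10 those at 4 h, 7 those at 18 h and 19 those at 2 weeks. Counts over the 276 therefore describe the genes that passed, not all Zfp genes.

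Most Zfp genes encode C2H2 zinc finger proteins, in which repeated fingers, each folded around a zinc ion by paired cysteines and histidines, read DNA base by base. Many carry a KRAB domain that recruits the corepressor KAP1 (Trim28), through which histone methylation and heterochromatin are laid down, and many of those silence transposable elements. The KRAB group has expanded by tandem duplication, so that its genes lie in clusters and resemble each other.

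Microglia were sorted from single retinas of male Cx3cr1CreER:R26-tdTomato heterozygotes on a C57BL/6 background, in which tamoxifen lets a Cre driven by the fractalkine receptor gene switch on the tdTomato reporter. All groups received the reporter and topical tamoxifen at 4 to 5 weeks of age. Endotoxin-induced uveitis (EIU) was induced 4 weeks later with 10 ng of lipopolysaccharide (LPS), a bacterial endotoxin, injected into the vitreous. The groups were 10 naïve retinas, without LPS, 6 retinas taken 4 h after it, 5 taken after 18 h and 7 after 2 weeks. From each retina, 600 live tdTomato-high cells were used. The retinas came from 2 experiments and from left and right eyes, and the labels do not tie retinas to mice, so p-values measure the spread between retinas, some of which may share an animal. No group injected with vehicle is used here, so that injection and endotoxin cannot be told apart. Since Cx3cr1 drives the Cre that switches on the reporter, the sort selects on that lineage.

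The deposited table states between 7510000 and 19700000 alignments per retina, and between 6552 and 11825 genes reached 1 RPKM. The 4 retinas with fewer than 8000 genes, 2 naïve, 1 at 18 h and 1 at 2 weeks, all came from experiment 1. All 9 microglial markers were detected, with a summed level of 6629 to 13214 RPKM in the naïve group and 7779 to 12791 at 2 weeks, but 2149 to 6689 at 4 h and 3909 to 6178 at 18 h. Among these, Sall1, P2ry12, Cx3cr1 and Aif1 were down-regulated at 4 h. The 8 neutrophil markers summed to at most 16.0 RPKM, reached at 18 h, and S100a9, Ngp, Ltf and Retnlg were at 0 in every 4 h retina. The 6 monocyte markers summed to between 0.0321 and 32.9 RPKM over all retinas, and to at most 15.7 at 4 h. The 5 endothelial markers summed to at most 4.10 RPKM in any retina. The 6 lymphocyte markers summed to at most 0.548 RPKM in naïve retinas, 1.72 at 4 h and 6.09 at 2 weeks, but to between 8.34 and 86.4 at 18 h. Of these 6, only Nkg7 met the minimum, and it was up-regulated at 18 h (log2 fold change 4.36 against naïve). Cd79a was at 0 in every 18 h retina. The 8 rod photoreceptor markers summed to 671 to 5920 RPKM across the retinas. Their median was 3039 in the naïve group, 3830 at 4 h, 1987 at 18 h and 3615 at 2 weeks. The microglial markers had medians of 9250, 4679, 4088 and 9841 in the same order. The 6 Müller glia markers had a median of 138 RPKM without LPS and 149 at 2 weeks, against 97.0 at 4 h and 48.8 at 18 h. The part of other retinal RNA in the Zfp levels was not tested.

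The 276 genes were unevenly placed in the genome (GRCm38, GENCODE annotation). Chromosome 7 held 67, chromosome 17 held 38, chromosome 13 held 28 and chromosome 8 held 20. Another Zfp gene lay within 500 kb of 197 of them, and 79 had no such neighbour. In the coding sequence, neighbouring fingers are joined by a short conserved linker, which was searched for on the coding strand by the 14-base pattern of its codons, shown in capitals below. Of 273 genes with a coding transcript, 138 (50.5%) held this linker at least 5 times, against 1.16% of all 21901 coding genes. Of 1110 gaps from one linker to the next, 727 (65.5%) were exactly 84 bases, or 28 codons, the spacing of a regular array. To show this repeat, coding stretches of 182 bases are given for Zfp950 and Zfp40, which were down-regulated at 4 h, and for Zfp811, which was up-regulated. They are read on the coding strand, 5′ to 3′, with linkers in capitals, and come from the last coding exon at chr19:61120171-61120352, chr17:23176107-23176288 and chr17:32797986-32798167, all on the minus strand of GRCm38.
Zfp950: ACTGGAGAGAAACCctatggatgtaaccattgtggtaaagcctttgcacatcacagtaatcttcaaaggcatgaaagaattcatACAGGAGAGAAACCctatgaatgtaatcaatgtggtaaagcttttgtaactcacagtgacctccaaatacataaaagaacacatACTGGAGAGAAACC
Zfp40: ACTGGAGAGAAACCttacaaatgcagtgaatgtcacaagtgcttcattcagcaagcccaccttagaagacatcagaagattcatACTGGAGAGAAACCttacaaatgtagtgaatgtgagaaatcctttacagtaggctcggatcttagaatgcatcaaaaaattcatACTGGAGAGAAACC
Zfp811: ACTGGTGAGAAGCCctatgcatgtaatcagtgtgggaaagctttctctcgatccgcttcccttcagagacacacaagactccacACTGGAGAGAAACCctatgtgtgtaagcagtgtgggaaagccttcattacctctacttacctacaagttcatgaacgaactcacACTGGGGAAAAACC
Among the other genes down-regulated at 4 h, Zfp710, Zfp638, Zfp467 and Zfp839 held no linker by this pattern. The stretches above were chosen for linkers spaced exactly 84 bases, so that the array they share follows from the choice. Reads from such arrays can fit several genes, and the authors' counting could divide them. In 54 of the 276 genes more than 10% of the 75-base windows of their transcripts also occurred in transcripts of another gene, and in 15 more than 50% did. The sequencing kit did not mark strand, and the exons of 60 genes overlap a gene on the opposite strand. Reads within such an overlap cannot be told from those of the partner.

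In naïve retinas most of these genes had low levels. The median of their mean RPKM was 2.71, with 37 genes at 10 RPKM or more and 42 under 1. Zfp706 was the highest, between 75.3 and 216 RPKM with a median of 118. Next came Zfp207, which encodes a microtubule-binding protein of the mitotic spindle, between 32.8 and 206 RPKM. Either of these was the highest of the 276 in each of the 10 naïve retinas. Zfp825 (8.88 to 39.7 RPKM), Zfp830 (14.2 to 41.6), whose product takes part in splicing, and Zfp991 (12.2 to 50.1) followed, and these 5 genes together made up 19.2% of the summed level. Zfp991 is uncertain, because 75.9% of its windows occur in other genes. The spread between retinas was wide, in that 136 of the 276 genes were listed at 0 in at least 1 naïve retina, which can be a product of the estimation.

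The summed level of the 276 genes was lower at 4 h and partly so at 18 h. It ran from 1404 to 1648 RPKM in naïve retinas (mean 1520 ± 88.7, SD, n = 10), and from 935 to 1145 at 4 h (1029 ± 76.1, n = 6). The 18 h retinas had 1261, 1100, 1185, 1368 and 1324 RPKM, and those at 2 weeks ran from 1358 to 1695 with a median of 1463. All 4 h and all 18 h retinas thus lay below all naïve ones, while the 2-week retinas overlapped with them. The group means were 0.677, 0.821 and 0.991 times the naïve mean. Within experiment 1 the same ratios were 0.703, 0.828 and 0.980, and within experiment 2 they were 0.644, 0.840 (a single retina) and 1.00. Without Zfp706 and Zfp207 they were 0.711, 0.807 and 1.02, and the 18 h range (937 to 1179) then overlapped with the naïve one (1032 to 1504). These are relative levels: the summed RPKM of all genes was itself 1.22 times the naïve mean at 4 h, and of each 1000000 RPKM of that sum the Zfp genes took 3508 to 5310 in the naïve group and 3493 to 5012 at 2 weeks, against 1837 to 2640 at 4 h and 2288 to 2998 at 18 h. Fewer cells of a type and less RNA per cell cannot be told apart in such samples. The microglial markers fell with the Zfp genes, and their part in this was not tested.

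**Figure D1:**
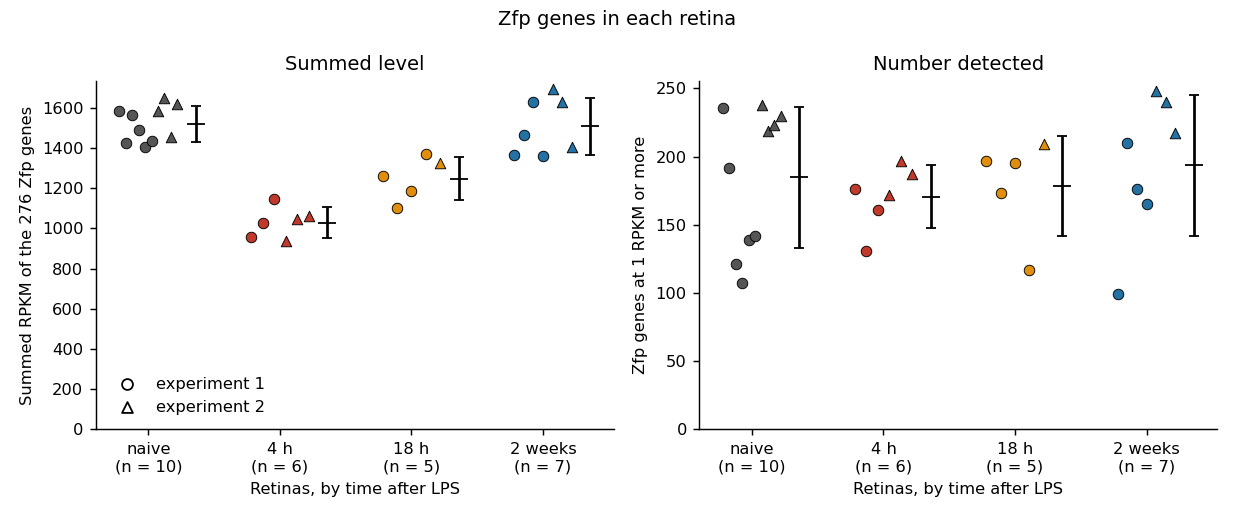
Each point is 1 retina, as a circle for experiment 1 or a triangle for experiment 2, grouped by time after LPS. The left panel gives the summed RPKM of the 276 Zfp genes and the right panel the number of them at 1 RPKM or more, with the mean and SD beside each group. The 6 retinas at 4 h sit between 935 and 1145 RPKM, below every naïve retina, whereas the number detected overlaps between all groups.

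The number of Zfp genes detected did not separate the groups. Between 107 and 238 reached 1 RPKM without LPS, 131 to 197 did so at 4 h, 117 to 209 at 18 h, and 99 to 248 in the 2-week group. In experiment 2, all naïve retinas detected 219 or more and the 4 h retinas 172, 187 and 197, without overlap. In experiment 1 the naïve retinas ran from 107 to 236 and the 4 h retinas from 131 to 176. The number of all genes detected moved alongside, from 6552 to 11825 in the naïve retinas of experiment 1 and from 11129 to 11429 in those of experiment 2, and its part in the comparisons below was not tested beyond the fits given with them.

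At 4 h more single Zfp genes changed downward than upward, as did more of all genes. Differences were tested on log2(RPKM + 1) with limma, in 1 fit of all 28 retinas over the 13164 genes past the same minimum, and a gene was called when its Benjamini-Hochberg adjusted p was at most 0.05 and its fold at least 2. By this rule 17 of the 276 were down-regulated (6.16%, against 4.39% of all genes tested) and 2 were up-regulated (0.725%, against 3.68%). The median log2 fold change was −0.19 for the Zfp genes and −0.11 for all genes, and 183 of the 276 (66.3%) had a value below 0, against 56.7% of all genes. An unadjusted p under 0.05 was found for 58 Zfp genes, 49 lower and 9 higher (21%, against 20.5% of all genes). At any fold 18 were lower and 3 higher by the adjusted p (6.52% and 1.09%, against 4.82% and 3.87%). The 19 called genes became 11 without 4 h retina 1 and 12 without 4 h retina 5. All 19 were among the 241 that met the minimum with any group left out, in which the median was −0.20. In 8 Zfp genes every 4 h retina lay below every naïve one (2.90%, against 1.42% of all genes), and in 1 gene every 4 h retina lay above (0.362%, against 1.65%). The shift in the median was thus small, and most genes missed the threshold. Between single naïve retinas, the median deviation of the Zfp genes from their naïve means had an SD of 0.46 (log2). With the replicate number as a block, 139 Zfp genes were lower at 4 h and 137 higher. With each retina rescaled to the same summed RPKM the median was −0.37 for the Zfp genes and −0.28 for all genes, and calls over all genes went from 485 higher and 578 lower to 410 and 1002.

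The 4 h result differed in size between the experiments. In experiment 2 alone, 41 Zfp genes were down-regulated and 1 up-regulated (14.9% and 0.362%, against 8.41% and 3.43% of all genes), with a median log2 fold change of −0.44, against −0.26 for all genes, and 81.5% of values below 0, against 67.9%. In experiment 1 alone, 3 were down-regulated and 2 up-regulated (1.09% and 0.725%, against 1.19% and 2.29%), with a median of −0.07, against −0.05, and 54.7% of values below 0, against 52.3%. In experiment 1 the Zfp genes thus lay close to all genes. The 17 genes called with both experiments together had a log2 fold change below 0 in each, which their choice from the pooled retinas favours. The difference of the 4 h change between the experiments was itself tested, and no Zfp gene passed (limma, adjusted p at most 0.05; 15 of the 276, or 5.43%, at an unadjusted p under 0.05, against 4.71% of all genes), against 1 gene higher (0.0076%) and 12 lower (0.0912%) over all genes. Of those 15, 14 had a lower change in experiment 2 than in experiment 1, and 1 a higher one. The median difference was −0.30 over the Zfp genes and −0.19 over all genes. The 1 higher was Zfp810, which had the smallest p, with a difference of 2.30 ± 0.70 (log2, SE; adjusted p = 0.413). Without the 4 retinas of fewer than 8000 genes, an alternative chosen after seeing the data, 28 Zfp genes were down-regulated and 3 up-regulated (10.1% and 1.09%, against 7.44% and 3.88%), and 17 of the 19 genes called with all retinas were among them.

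**Figure D2:**
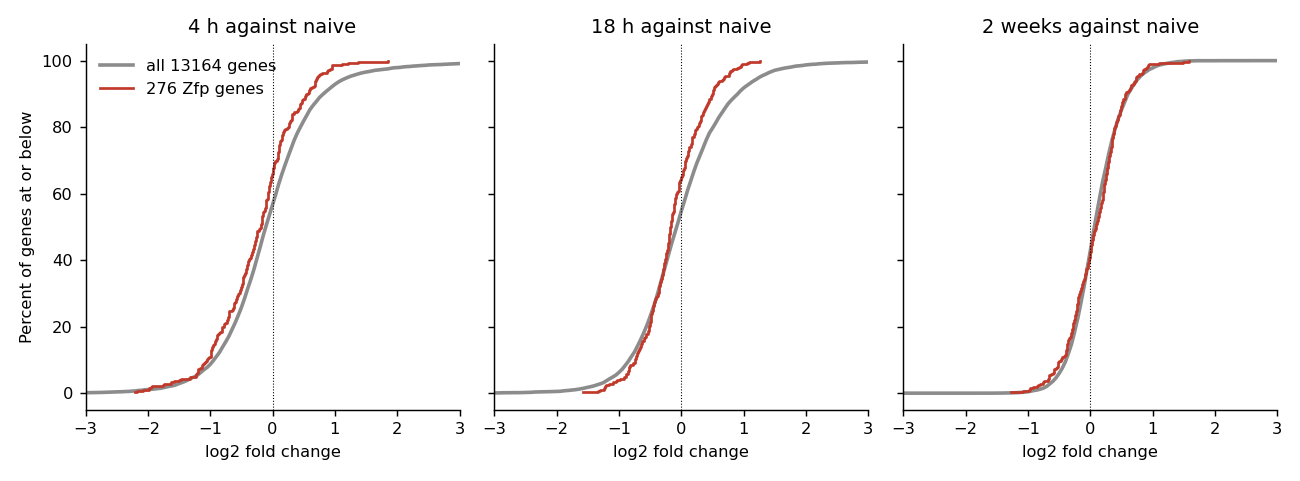
Cumulative distributions of the log2 fold change against naïve retinas, on log2(RPKM + 1), for the 276 Zfp genes (red) and all 13164 genes tested (grey) in 1 panel for each time after LPS. The red line runs above the grey at 0 for 4 h, where 66.3% of Zfp genes and 56.7% of all genes lie below 0, and lies close to it at 2 weeks (41.7% and 42.6%).

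The gene with the smallest p at 4 h was Zfp710 (chr7:80024814-80094173, plus strand), which stands apart from any Zfp cluster. It measured between 1.89 and 6.68 RPKM in naïve retinas (median 4.28), between 0 and 0.292 at 4 h (median 0.0631), and between 1.02 and 7.48 at 2 weeks (median 2.45). At 18 h the 5 retinas had 0.986, 1.73, 1.19, 0.725 and 1.51 RPKM. It was therefore nearly absent at 4 h, and all 4 h and 18 h retinas lay below the lowest naïve retina. Its log2 fold change was −2.20 ± 0.31 at 4 h (SE, limma adjusted p = 4.8e-06) and −1.20 ± 0.32 at 18 h (adjusted p = 0.0241). From 4 h to 2 weeks it rose by 1.84 ± 0.33 (adjusted p = 0.000295). Its exons overlap Gm44949 on the other strand, and reads within that overlap cannot be assigned to either gene. Of all its windows, 0.361% also occurred in other genes, on either strand.

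Zfp950 (chr19:61053840-61140840, minus strand), with 16 linkers and no Zfp neighbour, had 4.45 to 29.0 RPKM in naïve retinas (median 10.9) and 1.62 to 3.64 at 4 h (median 2.34). The 18 h retinas had 4.16, 4.83, 4.34, 1.94 and 7.29 RPKM, and the 2-week retinas ran from 5.36 to 10.3 (median 7.86). No 4 h retina reached the lowest naïve retina, and 3 of 5 at 18 h were below it. The log2 fold change was −1.93 ± 0.32 at 4 h (adjusted p = 8.94e-05) and −1.31 ± 0.34 at 18 h (adjusted p = 0.0199).

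Zfp984 (chr4:147753974-147809788, minus strand) stood out for its return at 18 h. Naïve retinas had 6.55 to 40.4 RPKM (median 16.5) and 4 h retinas 0.812 to 7.76 (median 2.83), with 5 of 6 below the lowest naïve retina. At 18 h the values were 21.8, 19.3, 14.7, 18.6 and 14.9 RPKM, all within the naïve range, and at 2 weeks the median was 13.4 with 1 retina near 0. The log2 fold change was −2.18 ± 0.48 at 4 h (adjusted p = 0.0026) and 0.12 ± 0.51 at 18 h. The direct comparison of 18 h with 4 h gave 2.29 ± 0.57 (adjusted p = 0.0121). That call was kept without any single retina, but lost with a pseudocount of 0.1 and in experiment 1 alone. Experiment 2 held a single 18 h retina. Since 40.9% of its windows are shared with other genes, and its exons overlap Gm20707 on the same strand, its level is uncertain.

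Zfp810 (chr9:22276748-22307648, minus strand) measured 3.51 to 14.3 RPKM in naïve retinas (median 5.33) and 0 to 2.87 at 4 h (median 1.12), again with no overlap. The 4 h retinas of experiment 1 were at or near 0, and those of experiment 2 between 2.23 and 2.87. Its log2 fold change of −1.94 ± 0.41 had an adjusted p of 0.00166. Zfp638, whose nuclear protein acts with the HUSH silencing complex, had 5.14 to 17.2 RPKM in naïve retinas (median 10.4) and 2.18 to 4.94 at 4 h (median 3.77). All its 4 h retinas were lower than all naïve ones, and it changed by −1.23 ± 0.33 (adjusted p = 0.0129). Zfp839 likewise did not overlap, with 2.48 to 12.2 RPKM in naïve and 0.539 to 2.08 in 4 h retinas (log2 fold change −1.48 ± 0.42, adjusted p = 0.0205). That call was lost without 4 h retina 1, 5 or 6 (adjusted p up to 0.0581).

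A group with overlapping retinas followed. Zfp760, of a chromosome 17 cluster with 14 other Zfp genes within 500 kb, had a median of 3.30 RPKM in naïve and 0.502 in 4 h retinas, 4 of which lay below the naïve range of 1.10 to 13.9 (log2 fold change −1.63 ± 0.41, adjusted p = 0.00791). Zfp40, also on chromosome 17, went from a median of 6.76 to 1.19 RPKM (−1.73 ± 0.44, adjusted p = 0.00974). Zfp931 went from 19.3 to 3.72 RPKM (−2.07 ± 0.54, adjusted p = 0.0104), although 1 of its 4 h retinas had 17.5 RPKM, near the naïve median, and the call was lost without 4 h retina 1 (adjusted p = 0.0510). Zfp691, on chromosome 4, was the lowest of these, from a median of 2.12 to one of 0.236 RPKM (−1.19 ± 0.32, adjusted p = 0.0148). Zfp825, among the highest genes in naïve retinas, fell from a median of 27.2 to 6.44 RPKM (−1.58 ± 0.45, adjusted p = 0.0224), but 17.0% of its windows are shared, and the call was lost without 4 h retina 1, 5 or 6 (adjusted p up to 0.104). The other 5 down-regulated genes beside these and Zfp467 had log2 fold changes between −1.99 and −1.02 and adjusted p-values between 0.0208 and 0.0381. Zfp706, the highest Zfp gene, passed the test but not the fold: its 4 h retinas had 40.5 to 74.4 RPKM, all below the lowest naïve retina, with a log2 fold change of −0.99 ± 0.26 (adjusted p = 0.0132).

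**Figure D3:**
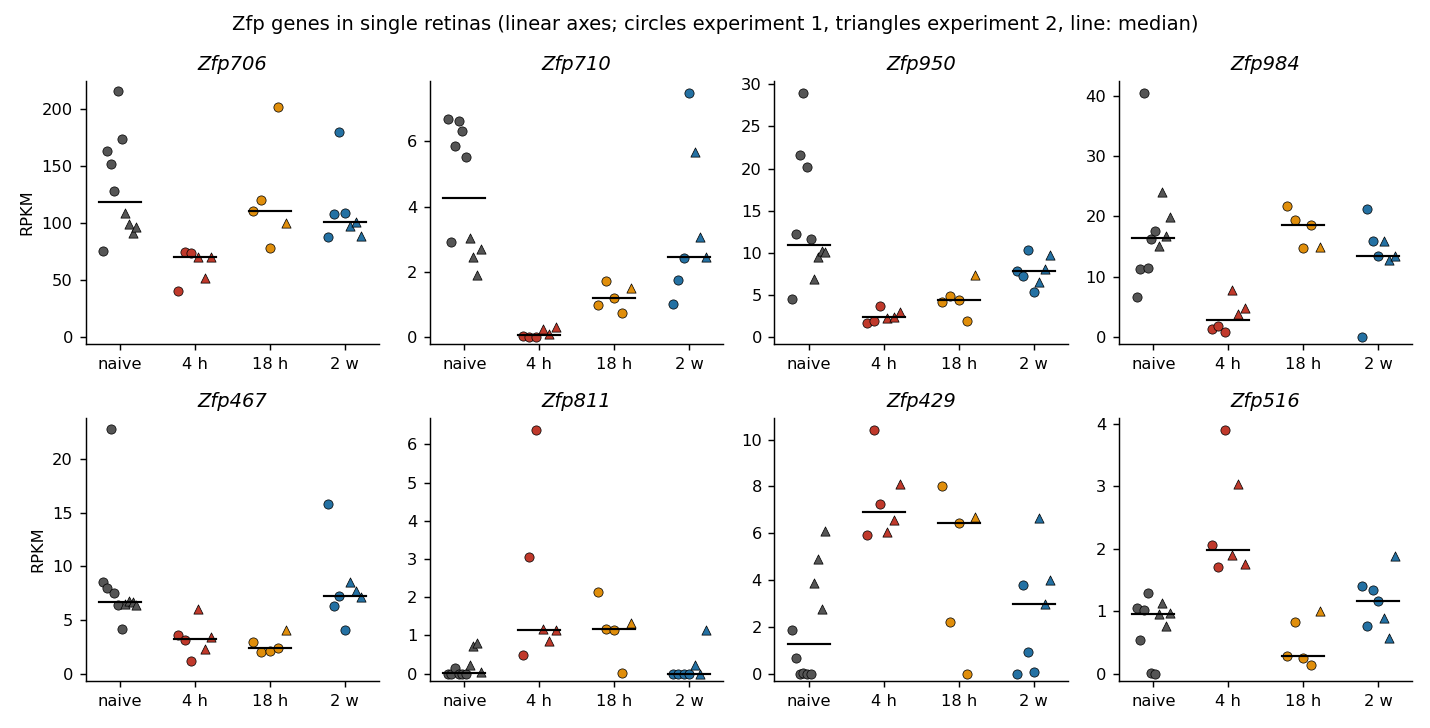
RPKM of 8 Zfp genes in each of the 28 retinas, on linear axes, with circles for experiment 1, triangles for experiment 2 and a line at each group's median. Zfp706, Zfp710 and Zfp950 at 4 h lie wholly below the naïve retinas, Zfp984 is back in the naïve range at 18 h, Zfp467 is low at both times, and Zfp811, Zfp429 and Zfp516 are the exceptions that rose at 4 h.

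The exceptions at 4 h were few. Zfp811 (chr17:32795676-32809931, minus strand), in the chromosome 17 group with 7 Zfp neighbours, was listed at 0 in 5 of 10 naïve retinas and reached 0.795 RPKM in the highest, with a median of 0.0221. At 4 h it ran from 0.476 to 6.38 RPKM (median 1.15), and at 18 h the retinas had 2.13, 1.18, 1.14, 0.0255 and 1.33. It was again at 0 in 5 of the 7 retinas at 2 weeks. Thus 5 of 6 retinas at 4 h, and 4 of 5 at 18 h, were above every naïve retina. The log2 fold change was 1.21 ± 0.29 at 4 h (limma adjusted p = 0.00457) and 0.81 ± 0.30 at 18 h (adjusted p = 0.132), and from 4 h to 2 weeks it was −1.23 ± 0.31 (adjusted p = 0.0104). Without 4 h retina 3, the highest, both differences fell short of the minimum fold (0.92 and −0.94). Neither was called in experiment 2 alone (adjusted p = 0.237 and 0.245) or with array weights.

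Zfp429 (chr13:67387905-67399819, minus strand), with 18 other Zfp genes within 500 kb, had 0 to 6.11 RPKM in naïve retinas (median 1.25) and 5.93 to 10.4 at 4 h (median 6.90). The 18 h values were 8.03, 2.21, 6.41, 0 and 6.68 RPKM, and the 2-week median was 2.97. Of the 4 h retinas, 4 of 6 exceeded every naïve retina. The log2 fold change was 1.86 ± 0.53 at 4 h (adjusted p = 0.0220). Its naïve retinas differed by experiment, at 0 to 1.85 RPKM in experiment 1 and 2.78 to 6.11 in experiment 2, and it was not called in experiment 2 alone. The call was also lost without 4 h retina 2 (adjusted p = 0.0548). More than 10% of its windows are shared, and its exons overlap Gm48900 on the other strand.

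Zfp516, whose product is known as an activator of the brown fat gene Ucp1, was the Zfp gene in which every 4 h retina lay above every naïve one. Naïve retinas had 0 to 1.29 RPKM (median 0.958), 4 h retinas 1.71 to 3.90 (median 1.98), and 2-week retinas 0.563 to 1.88 (median 1.16). The 18 h retinas had 0.277, 0.831, 0.251, 0.135 and 1.01 RPKM, all of them below every 4 h retina. Its log2 fold change at 4 h was 0.95 ± 0.24 (adjusted p = 0.0085), under the minimum fold on this scale, and the comparison of 18 h with 4 h was called at −1.18 ± 0.28 (adjusted p = 0.00903). This call was kept without any single retina, but lost with a pseudocount of 0.1 or 10, in experiment 1 alone and after quantile normalisation.

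Zfp703, which encodes a transcriptional corepressor, was the other gene that was lower at 18 h than at 4 h. Its 4 h retinas had 0.357 to 15.4 RPKM (median 2.67), against 0 to 3.54 in naïve retinas (median 1.02). The 18 h retinas had 0.204, 0.366, 0.122, 0 and 0.209 RPKM, of which 1 slightly exceeded the lowest 4 h retina. The change from 4 h to 18 h was −1.66 ± 0.49 (adjusted p = 0.0399), while neither time differed from naïve retinas by the test (0.92 ± 0.42 at 4 h, adjusted p = 0.201; −0.74 ± 0.44 at 18 h, adjusted p = 0.406). This call was lost without 4 h retina 1, 2, 3 or 5 and without any of the 18 h retinas (adjusted p up to 0.134). With Zfp984, these were the 3 Zfp genes called between 18 h and 4 h, 1 higher and 2 lower (0.362% and 0.725%, against 2.92% and 2.51% of all genes).

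At 18 h fewer Zfp genes were called and none was up-regulated, while the median stayed below that of all genes. Of the 276, 4 were down-regulated (1.45%, against 1.85% of all genes tested), and none was up-regulated by limma (against 2.84%). An unadjusted p under 0.05 was found for 17 Zfp genes, 15 lower and 2 higher (6.16%, against 17.5% of all genes). The median log2 fold change was −0.17, against −0.08 for all genes, and 179 genes (64.9%) had a value below 0, against 54.9%. The 4 genes were Zfp950 and Zfp710, described above, with Zfp467 and Zfp697. In Zfp710 and Zfp467 no 18 h retina reached the naïve range (0.725%, against 1.30% of all genes), and in no Zfp gene did every 18 h retina exceed it (against 2.05%).

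Zfp467 (chr6:48427697-48445825, minus strand), known for favouring fat over bone in marrow stromal cells, had 4.15 to 22.8 RPKM in naïve retinas (median 6.71) and 1.13 to 6.01 at 4 h (median 3.26). At 18 h the retinas had 2.97, 2.02, 2.07, 2.40 and 4.06 RPKM, and at 2 weeks 6 of 7 retinas lay within the naïve range again (4.10 to 15.8, median 7.27). The log2 fold change was −1.10 ± 0.32 at 4 h (adjusted p = 0.0241) and −1.24 ± 0.34 at 18 h (adjusted p = 0.0258). The 4 h call was lost without naïve retina 3, the highest, where the change fell short of the fold at −0.94, and without 4 h retina 3 or 5 (adjusted p up to 0.0951).

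Zfp697 (chr3:98382461-98753812, plus strand) had 0.305 to 3.66 RPKM in naïve retinas (median 2.13) and 0 to 1.52 at 4 h (median 0.779). The 18 h retinas had 0.324, 0.129, 0.274, 0.0532 and 0.267 RPKM, 4 of them below the lowest naïve retina. It changed by −1.22 ± 0.36 at 18 h (adjusted p = 0.0426) and by −0.69 ± 0.34 at 4 h (adjusted p = 0.243), and was higher at 2 weeks than at 4 h by 1.25 ± 0.36 (adjusted p = 0.0333). The 18 h call of Zfp697 was lost without naïve retina 1, 2, 7, 8, 9 or 10, 4 h retina 5 or 6, 2-week retina 2 or any 18 h retina (adjusted p up to 0.108). Its 2-week difference from 4 h was lost without 4 h retina 1, 2, 3, 5 or 6 or 2-week retina 2, 3 or 4 (adjusted p up to 0.103). Its exons overlap Hsd3b2 and Hsd3b3 on the other strand, and 11.1% of its windows are shared. Each of the 4 calls at 18 h was lost when certain single 18 h retinas were left out: none of the 276 was called without retina 1 or without retina 3, and 2 were called without retina 2 or without retina 4. In experiment 1 alone no Zfp gene was called in either direction (against 0.593% lower and 1.17% higher), in experiment 2, with its single 18 h retina, 2 were lower and none higher (against 0.441% and 0.813%), and without the 4 retinas of fewer than 8000 genes 3 were lower and none higher (against 2.66% and 4.03%). The lymphocyte markers, of which only Nkg7 met the minimum, summed to at least 8.34 RPKM in every 18 h retina. They summed to at most 1.72 in the naïve and 4 h retinas and to at most 6.09 at 2 weeks, and their part in the 18 h values was not tested.

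**Figure D4:**
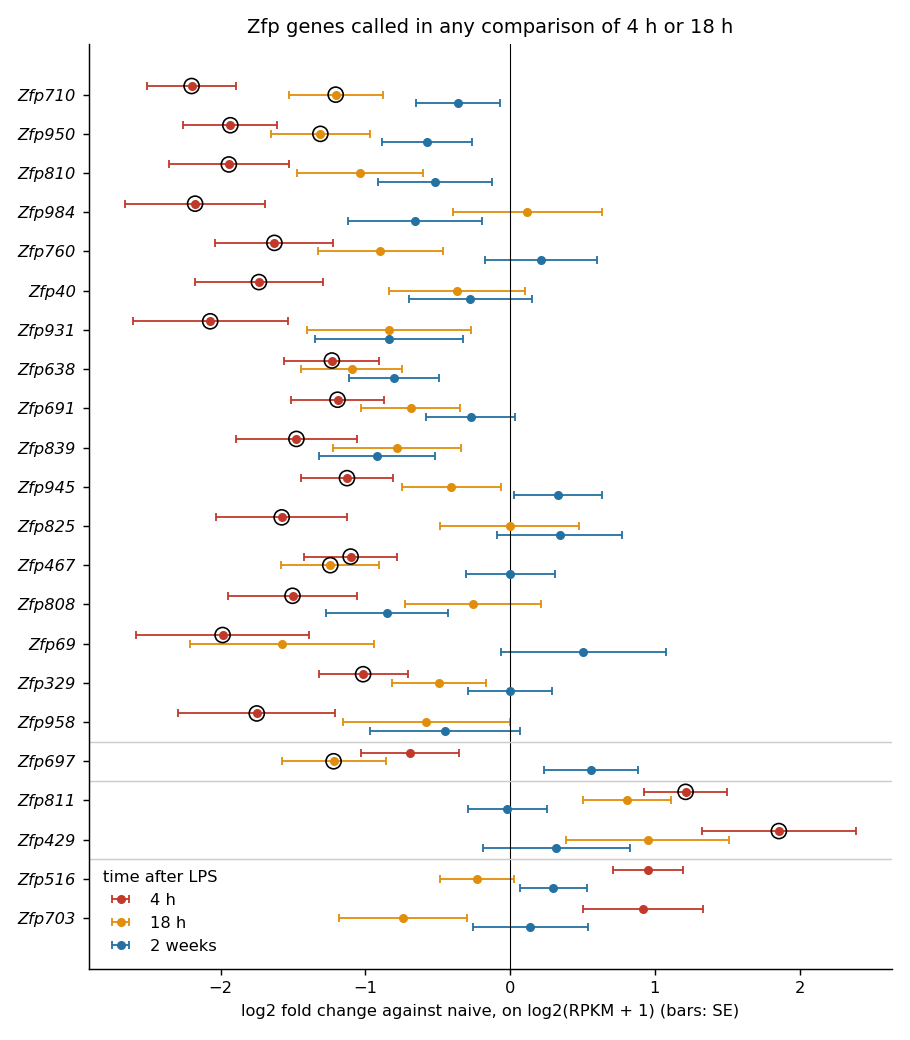
Log2 fold change against naïve retinas at each time after LPS, with SE, for the 17 Zfp genes down-regulated at 4 h, then Zfp697, then the 2 up-regulated at 4 h, then Zfp516 and Zfp703, which were called between 18 h and 4 h. Ringed points passed both the test and the fold. In the first block the 4 h points lie furthest from 0 in all but Zfp467, where that at 18 h does.

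The 17 genes down-regulated at 4 h were followed over the later times. Since they were chosen for their 4 h values, smaller differences at other times follow in part from the choice. Their median log2 fold change was −1.63 at 4 h, where it was part of the choice, −0.78 at 18 h and −0.36 at 2 weeks. At 18 h, 16 of the 17 were still below 0 and 3 of them were down-regulated. At 2 weeks, 11 of the 17 were below 0 and none was called, with values between −0.92 and 0.51. These comparisons share the naïve retinas. In the direct comparison of 18 h with 4 h, 1 of the 17 was called, Zfp984. In that of 2 weeks with 4 h, 9 Zfp genes were higher and 1 was lower (3.26% and 0.362%, against 3.18% and 2.91% of all genes), of which 8 were among the 17 and the others were Zfp697 and Zfp811. The 10 genes became 6 without 4 h retina 1 or 3 and 16 without 2-week retina 1.

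At 2 weeks no Zfp gene differed from naïve retinas by limma, in either direction, against 1 of all genes (0.0076%). For 13 Zfp genes, 5 lower and 8 higher, the unadjusted p was under 0.05 (4.71%, against 2.87% of all genes). The median log2 fold change was 0.09, against 0.07 for all genes, and 115 genes (41.7%) were below 0, against 42.6%. The smallest p belonged to Zfp51, which had 0.339 to 30.8 RPKM in naïve and 15.5 to 55.3 in 2-week retinas (log2 fold change 1.59 ± 0.54, unadjusted p = 0.0061, adjusted p = 1). Zfp638 followed, still lower at a median of 5.57 RPKM against 10.4 (−0.80 ± 0.31, adjusted p = 1), and then Zfp868 (−1.26 ± 0.54, adjusted p = 1), of which 3 retinas at 2 weeks lay below the lowest naïve retina.

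A list of 26 Zfp genes with described functions was looked at, which does not hold Zfp467, Zfp638 or Zfp516, described above. Of the 26, 22 met the minimum, and by limma none of these was called against naïve retinas at any of the 3 times. Their median log2 fold change was −0.02 at 4 h, when 11 of 22 were below 0. It was −0.44 at 18 h, with 18 of 22 below 0, and −0.20 at 2 weeks. The smallest adjusted p at 4 h was that of Zfp148, a factor of GC-rich promoters (11.7 ± 3.24 RPKM in naïve retinas, SD, n = 10; log2 fold change −0.99 ± 0.33, limma adjusted p = 0.0585). Zfp809, a KRAB protein that silences retroviral DNA, had −1.13 ± 0.46 (adjusted p = 0.138). On the other side, Zfp110, which binds the neurotrophin receptor p75, had 0.95 ± 0.47 (adjusted p = 0.255), and Zfp131 had 0.70 ± 0.48 (adjusted p = 0.445). Zfp207 had −0.97 ± 0.45 (adjusted p = 0.214), with 3 of the 4 h retinas below every naïve one. This list thus held values of both signs.

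The number of linkers was compared with the change, as a description. In the 138 genes with at least 5 linkers the median log2 fold change at 4 h was −0.32, with 10 genes down-regulated and 1 up-regulated. It was −0.10 in the 77 genes with 1 to 4 linkers (3 and 1) and −0.14 in the 58 with none (4 and 0). Over all genes tested, 4.39% were down-regulated and 3.68% up-regulated at 4 h. The classes also differed in level, with a median naïve mean of 3.19, 2.13 and 3.23 RPKM, and fold changes of low genes are understated on this scale. At 18 h the medians were −0.11, −0.17 and −0.29, lowest in the genes without a linker. Genes with another Zfp gene within 500 kb had a median of −0.25 at 4 h (197 genes, 10 down-regulated), and those without one −0.15 (79 genes, 7 down-regulated). For genes with more than 10% of shared windows the median was −0.22 (54 genes), and for the others it was −0.18 (222 genes), so that the median was below 0 in both. Neighbours share sequence, and single genes are not independent here.

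Promoters were read from RefSeq (GRCm38.p6), which held an entry for 233 of the 276 genes. In the 250 bases before the start, on either strand, the letters CCAAT occurred in 50.2% of Zfp promoters and in 34.5% of all 27025 promoters. GGGCGG, the GC box, occurred in 41.6% against 32.9%, CCGGAAG, read by ETS factors, in 18.0% against 7.05%, and GCCATNTT, read by YY1, in 7.73% against 3.93%. Of the 16 promoters of genes down-regulated at 4 h, 10 held CCAAT, 10 the GC box, 4 CCGGAAG and 0 GCCATNTT. A match is a run of letters and not a bound site. As an example of each direction, the 150 bases before the start are given for Zfp810 (chr9:22307639-22307788, minus strand), with CCAAT and the GC box in capitals, and for Zfp811 (chr17:32809932-32810081, minus strand), with CCAAT and the reverse complement of GCCATNTT in capitals.
Zfp810: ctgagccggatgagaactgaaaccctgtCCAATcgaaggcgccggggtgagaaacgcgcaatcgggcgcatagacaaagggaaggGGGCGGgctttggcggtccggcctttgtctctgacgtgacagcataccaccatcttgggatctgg
Zfp811: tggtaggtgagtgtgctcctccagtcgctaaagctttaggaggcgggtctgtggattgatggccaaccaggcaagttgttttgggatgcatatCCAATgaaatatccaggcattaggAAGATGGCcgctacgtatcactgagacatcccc
Both stretches shown hold CCAAT, that of Zfp810, which fell, and that of Zfp811, which rose. In contrast, the 150 bases before Zfp760, also down-regulated at 4 h, held neither CCAAT nor the GC box nor GCCATNTT. CCAAT also occurred within 250 bases in 34.5% of all promoters. Whether these letters go with the direction of change was not tested.

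Other zinc finger families and the corepressor genes were measured in the same fit. Over all genes tested, 4.39% were down-regulated and 3.68% up-regulated at 4 h, and 1.85% and 2.84% at 18 h. The lists are short, and their counts are given beside these shares as a description only. Of 45 Zbtb, Zkscan and Zscan genes past the minimum, 2 were down-regulated at 4 h, Zkscan3, a repressor of autophagy genes (−1.55 ± 0.37, adjusted p = 0.00581), and Zscan29 (−1.03 ± 0.32, adjusted p = 0.0384), and none was up-regulated. Their median log2 fold change was −0.14 at 4 h and −0.34 at 18 h, when Zkscan3 (−1.48) and Zbtb20 (−1.01) were down-regulated, calls that were lost without 18 h retina 2 or 4. The 9 Klf genes, the Krüppel-like factors, moved both ways at 4 h, with Klf7 (1.90 ± 0.36, adjusted p = 0.000486) and Klf10 (1.40 ± 0.44, adjusted p = 0.0417) higher and Klf2 (−1.76 ± 0.49, adjusted p = 0.0182) lower. Of the 23 genes of the KAP1 and heterochromatin list, Daxx, a histone chaperone, was up-regulated (1.88 ± 0.48, adjusted p = 0.00913), whereas Fam208a, a subunit of the HUSH complex (−1.15 ± 0.30, adjusted p = 0.0103), and Morc3 (−1.19 ± 0.31, adjusted p = 0.0109) were down-regulated at 4 h. Fam208a and Morc3 were both higher again at 2 weeks than at 4 h. No gene of the Klf and KAP1 lists was called at 18 h against naïve retinas, and none of the 3 lists had a call at 2 weeks.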

How the data were processed

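Per the labels and the study's methods, the authors trimmed 75-base single-end reads of SMART-Seq v4 and Nextera XT libraries, aligned them to mm10 with STAR 2.5.3a, quantified Ensembl 89 transcripts by expectation-maximisation in Partek and deposited 1 RPKM value per gene and retina. Read counts were not used here, and an exact 0 or a very low value may come from the estimation step itself. The authors' deposited tables of p-values, ratios, fold changes and F statistics were not used.

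Values were taken as log2(RPKM + 1), so that fold changes of low genes are understated. limma 3.58.1 in R 4.3.3 was fitted to 4 group means of 28 retinas with a mean-variance trend, over 13164 of 40021 genes, with Benjamini-Hochberg adjustment. The script was tested on simulated data. No sample column was left unused, and at most 2 non-zero values were identical between any retinas compared. Motifs and windows were searched with Python 3.11.15. Protein sequences were not used here.

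The genes and lists were chosen with earlier results of these data known. Genes named are the 5 highest in naïve retinas, up to 10 called lower and 8 called higher at 4 h and 18 h by smallest p, the 3 with the smallest p at 2 weeks, up to 5 called between 18 h and 4 h, up to 3 called between the experiments, a list with known roles, the genes at the edge of the filter and called genes of the comparison lists. Zfp810 in the test between experiments, and Zfp808, Zfp945 and Zfp958 in the closing section, were named after their values were seen. Alternatives were other pseudocounts, filters, covariates, scalings, variance models, groups of retinas, a replicate block and each retina left out.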

Additional observations from a re-analysis of the deposited data

Results flagged for a closer look

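Single retinas that stood apart from their group were looked for in 3 quantities over the Zfp genes and in log2(RPKM + 1) of the 22 genes called in any comparison with 4 h or 18 h, which gave 100 groups of retinas. Chance flags about 1 in 20 groups, and 10 were flagged, none of them in the summed level or the number of genes detected. At 2 weeks, retina 1 was low in Zfp40 (0.12, next 2.58) and Zfp984 (0, next 3.79) and high in Zfp945 (4.08, next 3.08). Retina 4 at 2 weeks was high in Zfp697 (4.06, next 2.14) and Zfp703 (2.36, next 1.22) and low in Zfp958 (1.42, next 3.13). Retina 7 at 2 weeks was high in Zfp811 (1.10, next 0.28). Naïve retina 3 was high in Zfp467 (4.57, next 3.25), retina 6 at 4 h was high in Zfp808 (0.71, next 0.11), and retina 4 at 18 h was low in Zfp958 (0, next 3.72). Retina 1 at 2 weeks, retina 4 at 18 h and naïve retina 3 are among the 4 with fewer than 8000 genes detected.

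In 3 Zfp genes the 18 h and 4 h changes differed when the difference itself was tested (limma, adjusted p at most 0.05). Zfp984 was higher at 18 h by 2.29 on the log2 scale, Zfp516 differed by −1.18 and Zfp703 by −1.66.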

How the results depend on the processing

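The 19 Zfp genes called at 4 h (2 higher, 17 lower) became 2 with a pseudocount of 10, 5 in experiment 1 alone, 42 in experiment 2 alone, 47 with array weights, whose estimation did not fully converge, and 31 without the 4 retinas of fewer than 8000 genes. Leaving out single retinas gave 11 to 24. The 4 genes at 18 h became 0 with a pseudocount of 10, in experiment 1 alone or after quantile normalisation, 2 in experiment 2 alone, 1 with only the groups compared, 8 with genes detected as a covariate and 10 with array weights, and 0 to 5 without single retinas. The 3 genes between 18 h and 4 h became 1 with a pseudocount of 10, a filter at 5 RPKM or experiment 1 alone, 5 after quantile normalisation, 6 with experiment as a covariate, 7 with only the groups compared, 9 without the 4 retinas, 10 with genes detected as a covariate and 18 with array weights (2 to 4 without single retinas). The 10 genes between 2 weeks and 4 h became 1 in experiment 1 alone, 2 with a pseudocount of 10, 16 after rescaling to an equal sum, 22 with genes detected as a covariate, 27 without the 4 retinas, 33 with array weights and 42 in experiment 2 alone (6 to 16 without single retinas). The 0 genes of the test between experiments became 8 with array weights (0 to 0 without single retinas). These counts stand without the share of all genes called under the same setting, which is given above only for some of the 4 h and 18 h fits. They therefore show how the calls depend on the setting, and not a result about the Zfp genes. The same applies to the list counts that follow.

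Of the comparison lists, 8 genes were called at 4 h, 0 with a pseudocount of 10 and 1 in experiment 1 alone (5 to 9 without single retinas, 5 being without 4 h retina 4). At 18 h 2 were called, 0 with a pseudocount of 10 or in either experiment alone, 1 with a filter at 5 RPKM, experiment as a covariate, only the groups compared, quantile normalisation or without the 4 retinas, and 4 with genes detected as a covariate or after rescaling (0 to 4 without single retinas). The summed level after rescaling was 0.554 (4 h) and 0.649 (18 h) times the naïve mean. Without single retinas it was 0.661 to 0.689, 0.801 to 0.845 and, at 2 weeks, 0.971 to 1.01. The median log2 fold changes then ran from −0.30 to −0.12 at 4 h, −0.22 to −0.07 at 18 h and 0.0023 to 0.17 at 2 weeks, and at 2 weeks no Zfp or list gene was called (0 to 0). The cause of these differences was not tested.

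Retinas with the same replicate number did not always come from the same experiment: naïve retina 4 was of experiment 1 and 4 h retina 4 of experiment 2. Of 34 same-numbered pairs, 15 had deviations correlated above 0.1 (−0.33 to 0.70). Pairs with different numbers were not compared, so these values do not show whether retinas were paired. With the replicate number as a block, some blocks held retinas of both experiments. In that fit 15 Zfp genes were called at 4 h (4 higher, 11 lower), 2 at 18 h and 0 of the list genes at 18 h. The median was −0.00653 at 4 h, with 139 Zfp genes lower and 137 higher, and 0.026 at 18 h. Zfp710 and Zfp950 kept their 4 h call in all alternatives but the pseudocount of 10, and Zfp984 in all but experiment 1 alone. Low levels and genes undetected in single retinas limit what can be called here, and no read counts behind single values were used.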
